A study of Homo sapiens with 8 samples.

Results

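bktRNA2, bktRNA21 and bktRNA28 are 3 short RNAs that co-purify with the kink-turn protein 15.5K (SNU13), and they are 3 of the 14 RNAs for which the authors deposited a structure-probing profile (142 of 1279 nucleotides, 11.1%). They were selected on their reactivity scores, because each profile is flat or does not follow the pairing predicted from sequence. Their mean scores, their peaks and their fit to the predicted fold are therefore descriptions, and no test of them was made. The study treated RNA-protein complexes on beads with NAI-N3 (4 libraries) or with its solvent DMSO (4 libraries). All 8 libraries came from HEK293T, a human embryonic kidney cell line, carrying a stably overexpressed FLAG-tagged 15.5K, and the pull-down used an antibody to FLAG. The labels do not say whether libraries of one treatment came from separate cultures. NAI-N3 acylates the 2'-hydroxyl of flexible nucleotides, and reverse transcription then reads the adducts as mutations. The deposited file gives 1 score per nucleotide for the whole series, so there is no value per library, no spread between replicates and no depth. Errors below are standard deviations (SD) or standard errors (SE) over nucleotides of one RNA, which are not replicates. Neighbouring nucleotides of one RNA are not independent.

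A kink-turn is a sharp bend in a helix, formed where box C (RUGAUGA, R being A or G) faces box D (CUGA). The G and A of both boxes stack as sheared G-A pairs, a U-U pair and a C-G pair continue that helix, and a short bulge before the sheared pairs carries an extruded U. 15.5K binds this motif in box C/D snoRNAs, U3 among them, and in the U4 snRNA. In box C/D snoRNAs box C comes first. In the 3 RNAs here box D comes first, 4 nt from the 5' end, and box C comes last, 1 nt from the 3' end. In this order the sequence between the boxes can fold into a hairpin whose stem, the C stem, starts directly after box D and ends at the bulge before box C.

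The 3 sequences are shown 5' to 3' from the deposited file, with box D and box C in capitals, because the layout of the boxes fixes which nucleotides can face each other in a kink-turn.
bktRNA2: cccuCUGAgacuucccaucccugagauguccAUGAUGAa
bktRNA21: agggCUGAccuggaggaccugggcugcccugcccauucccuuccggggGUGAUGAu
bktRNA28: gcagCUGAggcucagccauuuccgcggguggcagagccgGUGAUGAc

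The same sequences are shown with each nucleotide that scored above 0.01 in capitals, to show where the signal lies.
bktRNA2: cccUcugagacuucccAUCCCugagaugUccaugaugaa
bktRNA21: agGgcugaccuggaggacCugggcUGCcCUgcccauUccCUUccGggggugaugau
bktRNA28: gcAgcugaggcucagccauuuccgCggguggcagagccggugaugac

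Each of the 3 has signal in the middle of the sequence (a single base in bktRNA28) and at nt 3 or 4, just before box D, while both boxes are in lower case throughout. The bound of 0.01 was passed by 21 of their 142 nucleotides (14.8%), against 23.8% of the nucleotides of all 14 RNAs. A bound of 0.05 was passed by 1 of the 142, the U at nt 4 of bktRNA2, against 3.21% of all nucleotides. Because the members were chosen by these scores, the shares describe the choice.

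On hg38, bktRNA2 lies on chromosome 17 at 8266548 to 8266586 (plus strand) within PFAS, a gene for a purine synthesis enzyme. bktRNA21 lies on chromosome 22 at 46289013 to 46289068 (plus strand) within TTC38, and bktRNA28 on chromosome 19 at 56111825 to 56111871 (minus strand) within ZNF787, a zinc finger gene. Each host gene is protein-coding and is transcribed from the same strand as its RNA. The RNAs start 18940 nt, 21005 nt and 9424 nt after the start of the gene span in RefSeq, which is 82.8%, 80.8% and 27.8% of the way along it. Exons and introns were not analysed here.

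The 3 RNAs are not alike in composition. bktRNA21 has 66.1% G and C and bktRNA28 66.0%, above all 11 other RNAs (45.8% to 58.0%), while bktRNA2 has 51.3%. bktRNA2 is the shortest of the 14 RNAs (39 nt) and has the weakest predicted fold per length, -0.136 kcal/mol per nucleotide, where the other 11 run from -0.398 to -0.220. bktRNA21 (56 nt) has -0.427, the strongest of the 14, and bktRNA28 (47 nt) has -0.387. These measures use the sequence alone. All 3 carry an exact CUGA box D at nt 5 to 8. Box C reads AUGAUGA in bktRNA2 and GUGAUGA in the others, and starts at nt 32, 49 and 40.

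**Figure D1:**
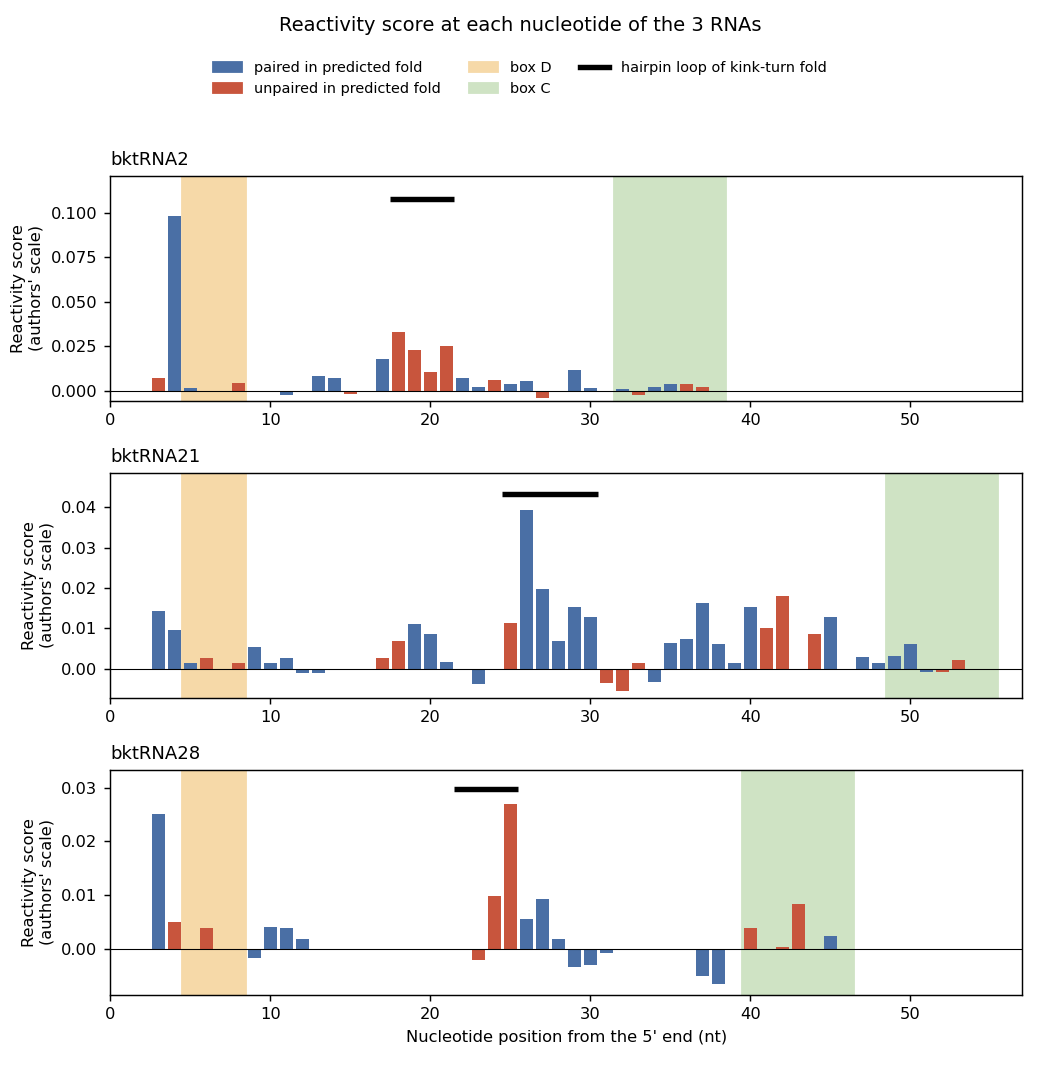
Reactivity score (vertical axis, the authors' scale, a different range in each panel) at each nucleotide from the 5' end (horizontal axis) of bktRNA2, bktRNA21 and bktRNA28, with bars coloured by pairing in the minimum free energy fold, boxes shaded and the hairpin loop of the kink-turn fold marked by a black line. The tallest bar of bktRNA2 is at nt 4 (0.0980), and in bktRNA21 the loop at nt 25 to 30 of the kink-turn fold covers the 2 tallest bars, at nt 26 and nt 27, which the minimum energy fold pairs.

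bktRNA2 has 1 isolated peak and 1 reactive loop. The U at nt 4, directly before box D, scored 0.0980, which is 34.2% of the summed positive score of this RNA. The C at nt 3 scored 0.00743 and the C at nt 5, the first base of box D, 0.00184, so the peak is 1 nt wide. The second patch is the stretch AUCCCU at nt 17 to 22, with a mean of 0.0194 ± 0.00952 (SD, 6 nt) against 0.00483 ± 0.0171 elsewhere. Within it the A at nt 17 scored 0.0181, the U at nt 18 0.0328, the next 2 C 0.0231 and 0.0104, the C at nt 21 0.0249 and the U at nt 22 0.00725. Outside these places the highest score was 0.0115, at the U of nt 29. Of the 39 nt, 12 were listed at 0 and 4 were below 0, with a lowest score of -0.00422.

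The minimum free energy fold of bktRNA2 (-5.3 kcal/mol) places the loop where the signal is. Its hairpin loop is UCCC at nt 18 to 21, with a mean of 0.0228 ± 0.00925 (SD, 4 nt), and all 4 bases of that loop passed 0.01. The 3 nt on either side had means of 0.00533 and 0.00511. The fold and its scores are printed together as follows.
bktRNA2, minimum energy: ...((((.(((.((.((....)).)).))))).))....
The fit to pairing was summarised by the AUC (area under the receiver operating curve), which is the share of pairs of an unpaired and a paired nucleotide in which the unpaired one scored higher, with ties counted as 0.5. Hairpin loop against all other nucleotides gave an AUC of 0.957, but unpaired against paired gave 0.485, and 0.506 in a second fold of equal energy. The unpaired mean was 0.00628 ± 0.0107 (SD, 17 nt) and the paired mean 0.00769 ± 0.0207 (22 nt), a difference of -0.00141 with an SE of 0.00512. The opposite order rests on the U at nt 4, which this fold pairs with the A at nt 35 in box C. Without that nucleotide the paired mean was 0.00339, the difference 0.00289 and the AUC 0.508. The 6 nt in its bulges and internal loops averaged 0.000370 ± 0.00413 (SD), so these unpaired bases did not share the signal of the hairpin loop. Of the 22 paired nucleotides, 7 were listed at 0.

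bktRNA21 has a broad, low profile in the 3' part and a low 5' part. Its highest score is 0.0394, at the G of nt 26, and the 6 nt UGCCCU at nt 25 to 30 averaged 0.0176 ± 0.0115 (SD, 6 nt), against 0.00341 ± 0.00547 over the other 50 nt. The U at nt 25 scored 0.0113, the C at nt 27 0.0198, the C at nt 28 0.00691, the C at nt 29 0.0154 and the U at nt 30 0.0127. This stretch is bounded by low values on both sides, with a mean of -0.00124 over nt 22 to 24 and of -0.00252 over nt 31 to 33. A second, lower region runs from nt 35 to nt 45, where the U at nt 37 scored 0.0164, the C at nt 40 0.0152, the U at nt 41 0.0102, the U at nt 42 0.0180 and the G at nt 45 0.0128. The C at nt 43 between them was listed at 0. In the 5' part, nt 5 to 18 stayed at or below 0.00702, and nt 14 to 16 were listed at 0. Before box D, the G at nt 3 scored 0.0144. In all, 12 of 56 nt passed 0.01, 13 were listed at 0 and 8 were below 0, with a lowest score of -0.00549.

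The minimum free energy fold of bktRNA21 (-23.9 kcal/mol) pairs the most reactive stretch. It forms 2 hairpins, and in the 5' one the first 5 nt pair with nt 26 to 30, so that the G of nt 26 faces the C of box D.
bktRNA21, minimum energy: (((((.(.(((((.....)))))).)))))...(((((((....))))))).....
Of the 2 predicted hairpin loops, AGGAC at nt 14 to 18 averaged 0.00196 ± 0.00308 (SD, 5 nt) with no base above 0.01, and UUCC at nt 41 to 44 averaged 0.00921 ± 0.00740 (SD, 4 nt) with 2 bases above it. The unpaired mean was 0.00280 ± 0.00558 (20 nt) and the paired mean 0.00611 ± 0.00841 (36 nt), a difference of -0.00331 with an SE of 0.00188 and an AUC of 0.382. No single nucleotide carried this order, since without the G at nt 26 the difference was -0.00236 and the AUC 0.393. Of the 12 nt above 0.01, 9 lay in predicted stems, but those stems hold 36 of all 56 nt, so the count is near that share.

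bktRNA28 has 2 signals and a long stretch listed at 0 in its 5' arm. Depth is unknown, so a score listed at 0 may be a low value or an unmeasured one. With zeros taken as unmeasured, the fit to pairing described below had an AUC of 0.705 in place of 0.602. The C at nt 25 scored 0.0270 and the A at nt 3 scored 0.0252, and no other nucleotide passed 0.01. Beside the first peak, the G at nt 24 scored 0.00988, the G at nt 26 0.00567, the G at nt 27 0.00940 and the G at nt 28 0.00191. The C at nt 22 was listed at 0 and the C at nt 23 scored -0.00202, so the signal of this loop begins at nt 24. The 10 nt from nt 13 to nt 22 were all listed at 0, a run matched or passed in 2 of the other 11 RNAs, bktRNA23 (13 nt) and bktRNA133 (21 nt). The 5 nt from nt 32 to 36 were also listed at 0, and nt 29 to 31 and nt 37 to 38 were below 0, down to -0.00650 at nt 38. In all, 25 of 47 nt (53.2%) were listed at 0 and 7 were below 0.

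The minimum free energy fold of bktRNA28 (-18.2 kcal/mol) is a single long hairpin with CCGC at nt 22 to 25 as its loop.
bktRNA28, minimum energy: .((.....(((((.(((((((....))))))).))))).....))..
The loop averaged 0.00872 ± 0.0133 (SD, 4 nt) and the rest 0.00130. The 3 nt 5' of the loop were at 0 and the 3 nt 3' of it averaged 0.00566, so the signal spans the 3' side of the loop and its first closing bases, which pair with U in the fold. The unpaired mean was 0.00297 ± 0.00662 (19 nt) and the paired mean 0.00123 ± 0.00560 (28 nt), a difference of 0.00174 with an SE of 0.00185 and an AUC of 0.602. Without the C at nt 25 the difference was 0.000405 and the AUC 0.579. The paired mean includes the A at nt 3, which the fold pairs with the U at nt 44 in box C. The fit of bktRNA28 was not among the lowest of the set: bktRNA23, bktRNA29, bktRNA61 and bktRNA105 had a lower AUC, and 7 others a higher one. Its place among the weakly fitting RNAs thus rests on its low scores.

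**Figure D2:**
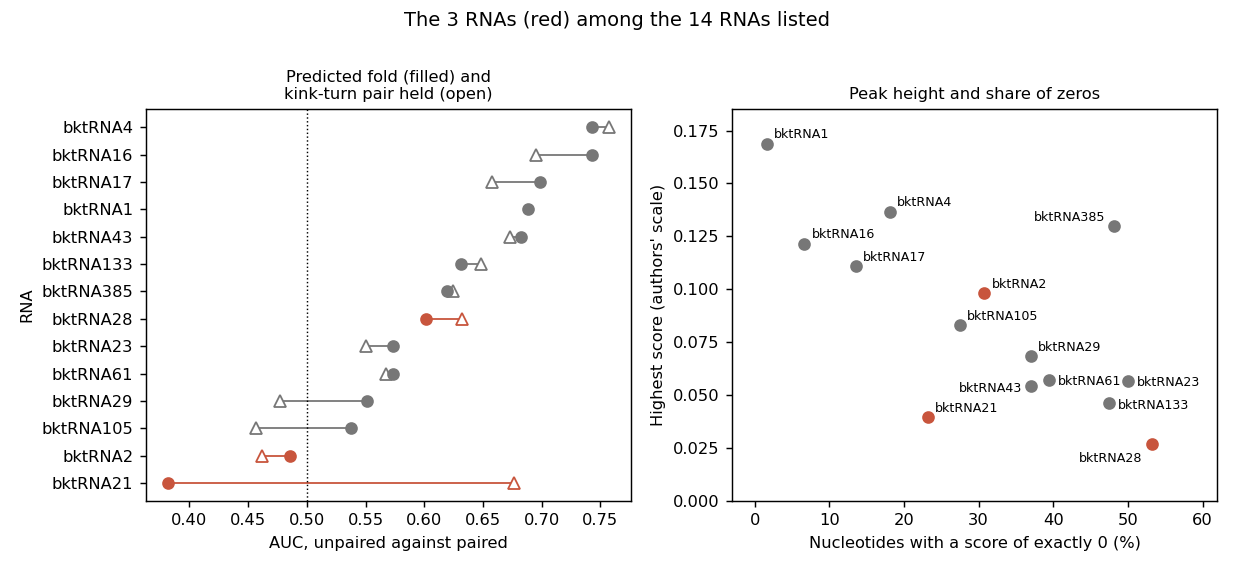
Left, AUC of unpaired against paired nucleotides (horizontal axis) for each of the 14 RNAs (vertical axis) in the minimum free energy fold (filled circles) and in the fold with the kink-turn pair held (open triangles; bktRNA1 has no box D at its 5' end and no triangle), and right, the highest score of each RNA (vertical axis, authors' scale) against the percent of its nucleotides listed at exactly 0 (horizontal axis). bktRNA21 moves from 0.382 to 0.677, and bktRNA28 has the lowest peak (0.0270) and the highest share of zeros (53.2%).

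Among the 14 RNAs, bktRNA28 (mean 0.00193 ± 0.00603, SD over 47 nt) was below the mean of all 11 others, which ran from 0.00318 to 0.0110. bktRNA21 averaged 0.00493 ± 0.00763 (SD over 56 nt), above bktRNA29 and bktRNA385, and bktRNA2 averaged 0.00707 ± 0.0169 (SD over 39 nt), above those and bktRNA23 and bktRNA133. Without its peak at nt 4, bktRNA2 averaged 0.00468 ± 0.00801. The highest scores of bktRNA21 and bktRNA28 were below those of all 11 others (0.0460 to 0.169), while that of bktRNA2 was above 6 of them. So bktRNA21 and bktRNA28 have low peaks, and bktRNA2 has 1 high nucleotide over an otherwise low profile.

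Box D was low in all 3. In bktRNA2 the C, U, G and A of box D scored 0.00184, 0, 0 and 0.00455, a mean of 0.00160 against 0.00770 elsewhere. In bktRNA21 they scored 0.00140, 0.00279, 0 and 0.00140, a mean of 0.00140 against 0.00520. In bktRNA28 they scored 0, 0.00394, 0 and 0, a mean of 0.000986 against 0.00202. The G of position 3, which forms a sheared pair in a kink-turn, was thus listed at 0 in each, and its median in the 10 other RNAs was 0 too. A score listed at 0 may be an unmeasured one, so whether these zeros reflect a sheared pair was not tested. The A of box D, also a sheared-pair base, scored 0.00455, 0.00140 and 0 in bktRNA2, bktRNA21 and bktRNA28. No box D nucleotide of the 3 RNAs passed 0.00455. The differences from the rest were -0.00610 (SE 0.00319), -0.00380 (SE 0.00123) and -0.00104 (SE 0.00137) in bktRNA2, bktRNA21 and bktRNA28. The 10 other RNAs with both boxes had differences of -0.00916 to -0.00179, so bktRNA28 had the smallest gap of the 13.

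Box C was low in bktRNA2 and bktRNA21 and at the level of the rest in bktRNA28. In bktRNA2 the 7 nt averaged 0.00153 ± 0.00219 (SD) against 0.00829 elsewhere. The highest was the A of position 4, a sheared-pair base, at 0.00407, and the lowest was the U of position 2 at -0.00224. In bktRNA21 they averaged 0.00144 ± 0.00254 against 0.00543, and the highest was the U of position 2 at 0.00609, the nucleotide that is extruded in known kink-turns. Its sheared-pair bases at nt 51 (G) and nt 52 (A) scored -0.000705 and -0.000688. In bktRNA28 box C averaged 0.00214 ± 0.00311 against 0.00190, a difference of 0.000244 with an SE of 0.00155. Its highest score was 0.00832 at the A of position 4, a sheared-pair base, and the U of position 2 was listed at 0. All 10 other RNAs had a lower mean in box C than elsewhere (differences of -0.00943 to -0.00156).

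The last 2 nt before box D were above the rest of the RNA in all 3, and in 5 of the 10 others. At the second nucleotide before box D, bktRNA2 scored 0.00743 (C), bktRNA21 0.0144 (G) and bktRNA28 0.0252 (A), where the 10 others ran from 0 to 0.0567 with a median of 0.00265. Directly before box D, bktRNA2 scored 0.0980 (U), bktRNA21 0.00969 (G) and bktRNA28 0.00511 (G), and the others ran from -0.00891 to 0.0160 with a median of 0.00573. So the peak of bktRNA2 lies outside the range of the others at that place, while bktRNA21 and bktRNA28 lie inside it. A U stands directly before box D in bktRNA2 and in 6 other RNAs, and among the latter the scores ran from -0.00891 in bktRNA105 to 0.0160 in bktRNA61. The first 2 nt and the last 2 nt of all 14 RNAs were listed at 0, so in the 3 RNAs the signal before box D can be seen at 2 positions only. In bktRNA4 and bktRNA17 box D starts at nt 4, so their second nucleotide before it is one of these end positions. Their listed 0 lowers the median of 0.00265, and both are among the others not above the rest in the last 2 nt.

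**Figure D3:**
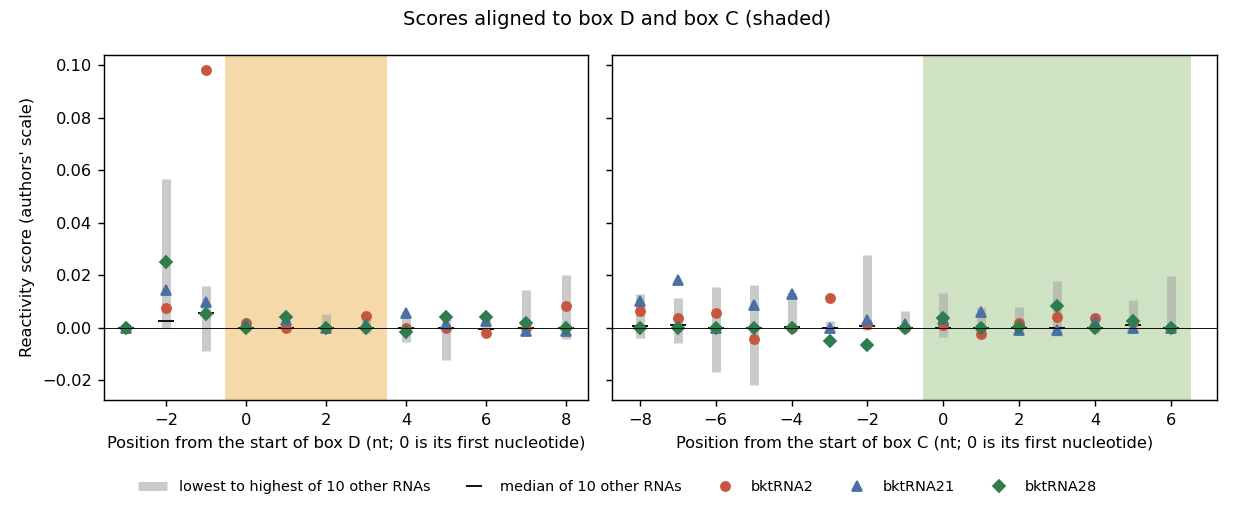
Reactivity score (vertical axis, authors' scale) at positions counted from the first nucleotide of box D (left, 0 is the C) and of box C (right, 0 is the R), for bktRNA2, bktRNA21 and bktRNA28 (coloured points) and the 10 other RNAs with both boxes (grey bars from lowest to highest, black dash at the median). Both boxes lie near 0 in the 3 RNAs, and the point at 0.0980 directly before box D belongs to bktRNA2.

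The kink-turn pairing can be drawn in full in all 3 RNAs, and in the 10 others with both boxes too. The contacts between the boxes follow from the box sequences by which the boxes were found. Position 1 of box D and position 6 of box C form a C-G pair, positions 2 and 5 a U-U pair, positions 3 and 4 the sheared G-A pairs, and the first nucleotide after box D faces the last one before the bulge as G-C in bktRNA2, C-G in bktRNA21 and G-C in bktRNA28. Counted from there without a break, the C stem has 3 pairs in bktRNA2, 8 in bktRNA21 and 5 in bktRNA28, within the 3 to 10 pairs of the 10 others. The C stem of bktRNA28 averaged -0.000305 ± 0.00341 (SD, 10 nt), with no nucleotide above 0.01. That of bktRNA2 averaged 0.00178 ± 0.00489 (6 nt), and the only nucleotide above 0.01 was the U at nt 29. In bktRNA21 the 5' strand (nt 9 to 16) averaged 0.000933 and the 3' strand (nt 40 to 47) 0.00847, so that the 2 strands of the same stem differed. Of its 16 nt, 4 passed 0.01, all in the 3' strand, which is near the share in the whole RNA (12 of 56 nt, 21.4%). On the other side of the boxes, the nucleotide before box D faces the last A of box C. This is a U that could pair in bktRNA2, where it is the 0.0980 peak, and a G in bktRNA21 and bktRNA28. The A was listed at 0 in all 3, but it is one of the last 2 nt, which are listed at 0 in every RNA.

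Holding this pairing changed the fit of bktRNA21 most. With the C-G pair between the boxes required and the rest of both boxes kept unpaired, its fold became a single hairpin on the 8-pair C stem, with the reactive UGCCCU at nt 25 to 30 as the loop.
bktRNA21, kink-turn pair held: ....(...((((((((...(((((......)))))....))))))))......)..
The unpaired mean became 0.00706 ± 0.00868 (SD, 28 nt) and the paired mean 0.00281 ± 0.00583 (28 nt), a difference of 0.00425 with an SE of 0.00198, and the AUC went from 0.382 to 0.677. Hairpin loop against the rest went from an AUC of 0.541 to 0.920. The 19 nt that were paired in the minimum energy fold and unpaired in this one averaged 0.00899 and held 7 of the 12 nt above 0.01, while the 11 nt that changed the other way averaged 0.00266. Since the held boxes are low and count as unpaired here, the comparison was repeated without them, and the AUC was 0.752 (0.395 in the minimum energy fold). The fold with both boxes kept unpaired and no C-G pair gave the same 0.752, so this value does not set the C-G pair apart from the unpaired boxes. With the C-G pair held and all nucleotides counted, the change in AUC was 0.295, against -0.0815 to 0.0178 in the 10 others. bktRNA21 was selected for its poor fit and started from the lowest AUC of the 14, so a larger change than in the others follows in part from that choice and is given as a description. The fold lies 4.6 kcal/mol above the minimum by the energy model, which credits neither the sheared pairs nor bound protein, and 1.7 kcal/mol above it when both boxes are kept unpaired without the C-G pair (AUC 0.656). This fold also pairs reactive bases of its C stem. The U at nt 41 (0.0102) and nt 42 (0.0180), which lie in a loop of the minimum energy fold, are paired in it, and the C at nt 40 (0.0152) and the G at nt 45 (0.0128) are paired in both folds.

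With this pairing held, the AUC rose less in bktRNA28 and fell in bktRNA2. In bktRNA28 the kink-turn fold keeps the whole hairpin and replaces only the 2 pairs between the ends, so that the A at nt 3 becomes unpaired.
bktRNA28, kink-turn pair held: ....(...(((((.(((((((....))))))).)))))......)..
The unpaired mean was 0.00389 ± 0.00798 (21 nt), the paired mean 0.000357 ± 0.00318 (26 nt), the difference 0.00353 with an SE of 0.00185 and the AUC 0.632, against 0.602 in the minimum energy fold. Both of its nucleotides above 0.01 were then unpaired, but the C at nt 25 already was in the minimum energy fold. This fold lies 3.5 kcal/mol above the minimum. With both boxes kept unpaired and no C-G pair, the A at nt 3 was unpaired as well. That fold lies 0.8 kcal/mol above the minimum and had an AUC of 0.645, so the gain does not depend on the kink-turn pair. In bktRNA2 the kink-turn fold keeps the hairpin too.
bktRNA2, kink-turn pair held: ....(...(((.((.((....)).)).)))......)..
The unpaired mean was 0.00912 ± 0.0215 (23 nt) and the paired mean 0.00413 ± 0.00526 (16 nt), so the difference, with nt 4 now on the unpaired side, was 0.00499 (SE 0.00468), while the AUC went down to 0.462 from 0.485. Without the boxes the AUC was 0.531 (0.495 in the minimum energy fold). The mean and the rank measure thus differ in direction for bktRNA2. Its kink-turn fold has an energy of -0.6 kcal/mol, 4.7 kcal/mol above the minimum. With both boxes kept unpaired and no C-G pair, the fold lies 1.6 kcal/mol above the minimum and had an AUC of 0.463.

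**Figure D4:**
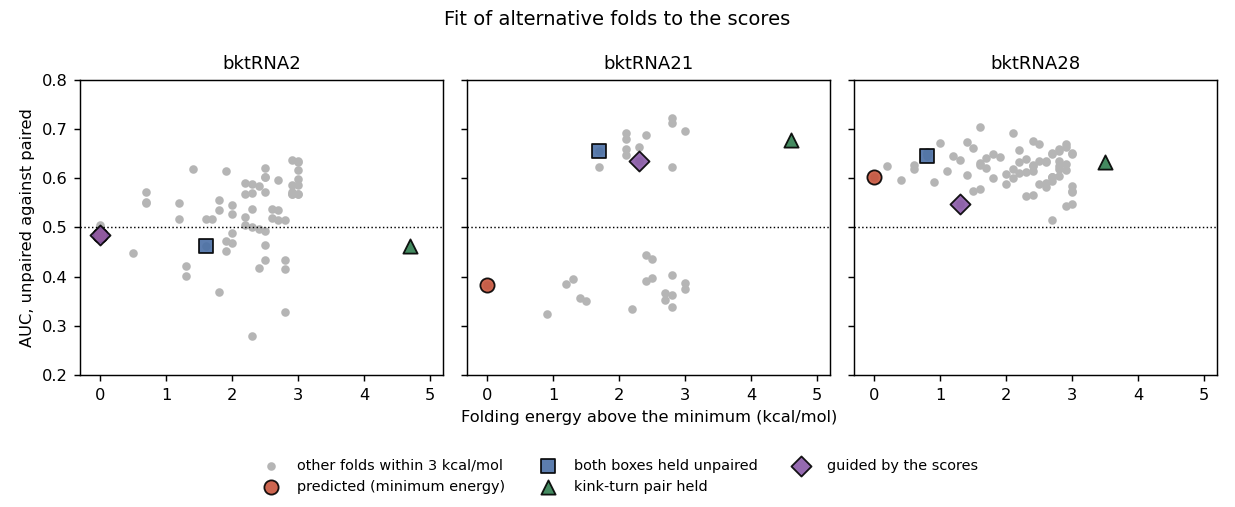
AUC of unpaired against paired nucleotides (vertical axis) against folding energy above the minimum (horizontal axis, kcal/mol) for every fold within 3 kcal/mol of the minimum (grey) and for 4 chosen folds (coloured), in bktRNA2, bktRNA21 and bktRNA28, with a dotted line at an AUC of 0.5. The folds of bktRNA21 fall in 2 groups, 18 at 0.324 to 0.443 and 13 at 0.622 to 0.723, while those of the other 2 RNAs form a single cloud.

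All other folds within 3 kcal/mol of the minimum were then compared with the profiles. The features by which folds are grouped here were chosen after the profiles were seen. Folds picked for their fit follow the profile by choice, so their values show what the profile allows and not which fold the RNA has. For bktRNA21 there were 31 folds. The 13 with a hairpin loop at nt 25 to 30 had AUC values of 0.622 to 0.723, and the 18 without it, all of which pair the G at nt 26, had 0.324 to 0.443. The first fold of the former kind lies 1.7 kcal/mol above the minimum. The best-fitting one (2.8 kcal/mol above, AUC 0.723) keeps that loop and the 5' strand of the C stem, and bulges out the U at nt 42, which scored 0.0180. It pairs the C at nt 5 with the G at nt 51, which is not the kink-turn pair.
bktRNA21, best within the window: ....(...((((((((...(((((......)))))...))).)))))...).....

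For bktRNA2, 48 of 64 folds had a higher AUC than the minimum energy fold printed above, up to 0.636. One of the 48 has the same energy of -5.3 kcal/mol. It adds a pair of the C at nt 2 with the G at nt 37, and its AUC was 0.506, so the 2 folds of lowest energy lie on either side of 0.5. Its unpaired mean was still the lower one, by a difference of -0.000154. The 23 folds with nt 4 unpaired had a median of 0.568 and the 41 with it paired 0.519, with overlapping ranges (0.279 to 0.636 and 0.328 to 0.632). The loop was stable across folds, since 62 of the 64 had a hairpin loop holding nt 18 to 21. The best-fitting fold (2.9 kcal/mol above the minimum) widens that loop to 7 nt, CAUCCCU at nt 16 to 22, and opens the pairs of nt 4 and 5.
bktRNA2, best within the window: .....((.(((.(((.......).)).))))).......

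For bktRNA28, all 74 folds had an AUC above 0.5 (0.516 to 0.704). The 14 folds that leave the G at nt 26 and 27 unpaired had a median of 0.659 and the other 60 a median of 0.616. The best-fitting fold (1.6 kcal/mol above the minimum) opens the 2 closing G-U pairs, making an 8 nt loop at nt 20 to 27, and leaves both ends unpaired.
bktRNA28, best within the window: ........(((((.(((((........))))).))))).........
Its unpaired mean was 0.00367 and its paired mean -0.000413.

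A fold guided by the scores themselves, in which low scores reward pairing, did not alter the fold of bktRNA2 (AUC 0.485), took that of bktRNA21 to a hairpin with the same loop at nt 25 to 30 (AUC 0.634) and gave bktRNA28 more pairs between the ends (AUC 0.548). The guide read every score listed at 0 as low, those at the ends included, though such a score may be unmeasured. The loop of bktRNA21 was thus found both with the boxes held and with the guide, though the guided fold used the profile it was compared with. That guided fold pairs the C of box D with the first base of box C, which is not the kink-turn pair.

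By base, U had the highest mean in bktRNA2 (0.0155 ± 0.0308, SD over 10 nt) and in bktRNA21 (0.00819 ± 0.00579, 12 nt), and A in bktRNA28 (0.00418 ± 0.00896, 8 nt). Without nt 4 the other 9 U of bktRNA2 averaged 0.00635, still above its C (0.00552), A (0.00437) and G (0.00137). Without nt 3 the other 7 A of bktRNA28 averaged 0.00119, below its G (0.00208) and C (0.00134). That C mean includes the peak at nt 25, and without it the other 12 C averaged -0.000797, below the A. In bktRNA21, 5 of 12 U, 4 of 17 C and 3 of 20 G passed 0.01 and none of 7 A did, against 12 of all 56 nt (21.4%). In bktRNA28, 6 of 8 A, 5 of 8 U and 8 of 13 C were listed at 0, against 6 of 18 G.

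Over 27 positions aligned to the boxes, the RNAs most like bktRNA2 in their scores were bktRNA17 (Spearman rho 0.588) and bktRNA23 (0.414), those most like bktRNA21 were bktRNA4 (0.343) and bktRNA16 (0.322), and those most like bktRNA28 were bktRNA61 (0.294) and bktRNA43 (0.272). These are descriptions over 12 compared RNAs, and positions listed at 0 in both RNAs of a pair (3, 6, 5, 1, 8 and 10 in the order given) count as alike. None of the 3 was the nearest neighbour of another.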

How the data were processed

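RNA from 4 NAI-N3 and 4 DMSO libraries was probed. The submitters' processing notes list STAR, cutadapt 3.4 and build hg38, without roles. The deposited values are 1 reactivity score at each nucleotide, shared by all libraries. The scale, any subtraction of DMSO signal, the depth minimum and the way libraries were combined are not given in the sources used here, so differences in depth between RNAs can move scores and zeros unseen. Scores were used as deposited, and the depth per sample was unknown. Boxes were found by best match, box C to RUGAUGA (at most 2 mismatches, UGA at positions 2 to 4) in the last 20 nt and box D to CUGA (at most 1 mismatch, GA last) in the first 20 nt. Folds came from ViennaRNA 2.7.2 (Python 3.11.15, NumPy 2.4.6, SciPy 1.17.1). The kink-turn fold required the pair of box D position 1 with box C position 6 and kept the other box nucleotides unpaired. The guided fold used a slope of 1.8 and an intercept of -0.6 on scores set to at least 0 and divided by the mean of the top 10%. No test was planned, since there are no replicates. Every member nucleotide above 0.01, in a box or before box D, and every predicted hairpin loop was eligible to be named. Other RNAs were named at the end of a range or as the 2 with the highest Spearman correlation over 27 box-aligned positions. Flanking nucleotides and other RNAs that rank beside a member were named after their values were seen. The functions were tested on simulated data. Members and lists were chosen with earlier results of these data known. Gene spans and strands came from RefSeq (GRCh38.p14), where all 3 host genes matched. Alternative settings are given in the closing section.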

Additional observations from a re-analysis of the deposited data

How the results depend on the processing

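No paired analysis was possible because the file holds 1 profile with no library columns, which also leaves no replicate to drop. A value was taken as moved if it shifted by more than its SE over nucleotides, and counts if they shifted over 1.5 times. Of 135 values under other settings, 96 stayed, 22 moved and 17 changed direction. The SE exceeded some of the values themselves, so a value counted as stayed can still have fallen far. In bktRNA2 the 4 nt before box D minus the rest was 0.0215 (SE 0.0240), and 0.00182 with medians counted as stayed. For bktRNA2, unpaired minus paired turned positive without the first 2 and last 2 nt (0.000524), without the highest nucleotide (0.00289), with medians (0.000193), with boxes held unpaired (0.00410) and with the kink-turn pair held (0.00499). Its AUC passed 0.5 with zeros not measured (0.533), without the first 2 and last 2 nt (0.572), without the highest nucleotide (0.508) and with Andronescu energies (0.532). For bktRNA21, holding boxes unpaired or the kink-turn pair turned the difference (0.00366 and 0.00425) and the AUC (0.656 and 0.677), and no other setting did. For bktRNA28, zeros not measured raised the difference to 0.00459 and the AUC to 0.705. Without its highest nucleotide the difference fell to 0.000405 and the AUC to 0.579, and with medians the difference was 0. Box C minus the rest turned in bktRNA2 with medians (8.75e-05) and in bktRNA28 with zeros not measured (-0.000469) and with scores below 0 set to 0 (-0.000311), and moved to -0.0109 in bktRNA2 with zeros not measured. Box D minus the rest shrank with medians to -0.00104 in bktRNA2 and -0.00101 in bktRNA21. The 4 nt before box D minus the rest turned in bktRNA2 without the highest nucleotide (-0.00239). It grew with zeros not measured to 0.0459 in bktRNA2 and 0.00591 in bktRNA21, and without the first 2 and last 2 nt to 0.0476, 0.00702 and 0.0137 in bktRNA2, bktRNA21 and bktRNA28. Mean scores moved with zeros not measured (0.0102, 0.00642 and 0.00413, same order) and with medians (0.00190, 0.00187 and 0). Folds with a better AUC numbered 4, 0 and 7 within 1 kcal/mol and 261, 175 and 350 within 5 kcal/mol, where more folds exist. The other causes were not tested. Depth is unknown, so its limit was not measured, but the smallest positive score was 0.00104 in bktRNA2, 0.00138 in bktRNA21 and 0.000352 in bktRNA28.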
